A study of Mus musculus with 2 samples.

Results

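The synaptic vesicle and release machinery is the set of neuronal proteins that fill the presynaptic terminal with vesicles, hold them at the release site, fuse them on calcium entry and retrieve them afterwards. A list of 44 genes for these proteins was examined, without the SNARE proteins and Rab GTPases. All 44 had a probe set annotated to that symbol alone, out of 18193 genes measured in this way. The genes were taken by name, in a list drawn up with earlier results of these data known. Where a gene had several probe sets, the brightest one, by the mean of both arrays, gave its value, so the signal but not the difference between the arrays entered that choice.

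The RNA came from cortical tissue of naive male C57BL/6J mice aged 2.5 months, namely P4H-TM KO (P4h-tm-/-) mice, which carry a homozygous knockout of transmembrane prolyl 4-hydroxylase for which no tissue-specific driver is named, and their WT littermates. RNA of 4 mice was pooled per genotype and hybridized to 1 Affymetrix mouse expression array, so that 2 arrays make up the whole experiment. Consequently, no difference has a replicate check, no p-value or SD between animals can be given, and an effect of genotype cannot be told apart from a difference between the pools or the arrays. The values are log2 expression values, on which a difference of 0.263 corresponds to 1.2-fold and one of 0.585 to 1.5-fold. P4htm, the targeted gene, had 11.05 in WT against 9.10 in P4H-TM KO, with 9.71 against 8.07 on a second probe set. Whether either probe set covers the exons hit by the knockout was not checked.

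In the resting terminal, synapsins tether vesicles to each other, and the vesicle membrane carries transport and structural proteins of the SV2 and synaptophysin families. Bassoon, piccolo and the RIM proteins organize the active zone, where Munc13 proteins prime docked vesicles and complexins hold the primed SNARE complex until calcium binds to a synaptotagmin. After fusion, NSF and its SNAP adaptors take the SNARE complexes apart, and dynamin, amphiphysin, endophilin and synaptojanin retrieve the membrane. The study followed vesicular exocytosis in cultured astrocytes. From its cortex arrays it also reported, by gene set enrichment analysis, changed pathways that include membrane trafficking, SNARE interactions in vesicular transport and calcium signaling. Those gene sets were not examined here, and the SNARE genes are not part of the list. The comparison made here asks whether transcripts of the neuronal release machinery differed between the cortex pools.

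Transcripts of the release machinery had nearly the same values on both arrays. The median log2 difference between P4H-TM KO and WT was 0.01 over the 44 genes, with 25 higher, 16 lower and 3 equal in P4H-TM KO, and 31 genes differed by 0.1 or less. Over all 18193 genes the median difference was 0.00, and 60.1% differed by 0.1 or less. Among the 11730 genes with a mean of at least 6.385, the median over all probe sets, this share was 69.9%. It was 70.5% among the release genes, which are mostly bright. The quartiles were −0.04 and 0.07 for the release genes and −0.09 and 0.07 for all genes. At least 1.2-fold higher values in P4H-TM KO were found for 2 release genes, Syt9 and Syt17, which is 4.55% of the list against 4.12% of all genes, and no release gene was 1.2-fold lower, against 4.91% of all genes. None reached 1.5-fold, against 0.61% of all genes that were higher and 0.148% that were lower. In the upward direction these shares lay close to those of all genes, and the share past 1.2-fold rests on the 2 genes named.

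**Figure D1:**
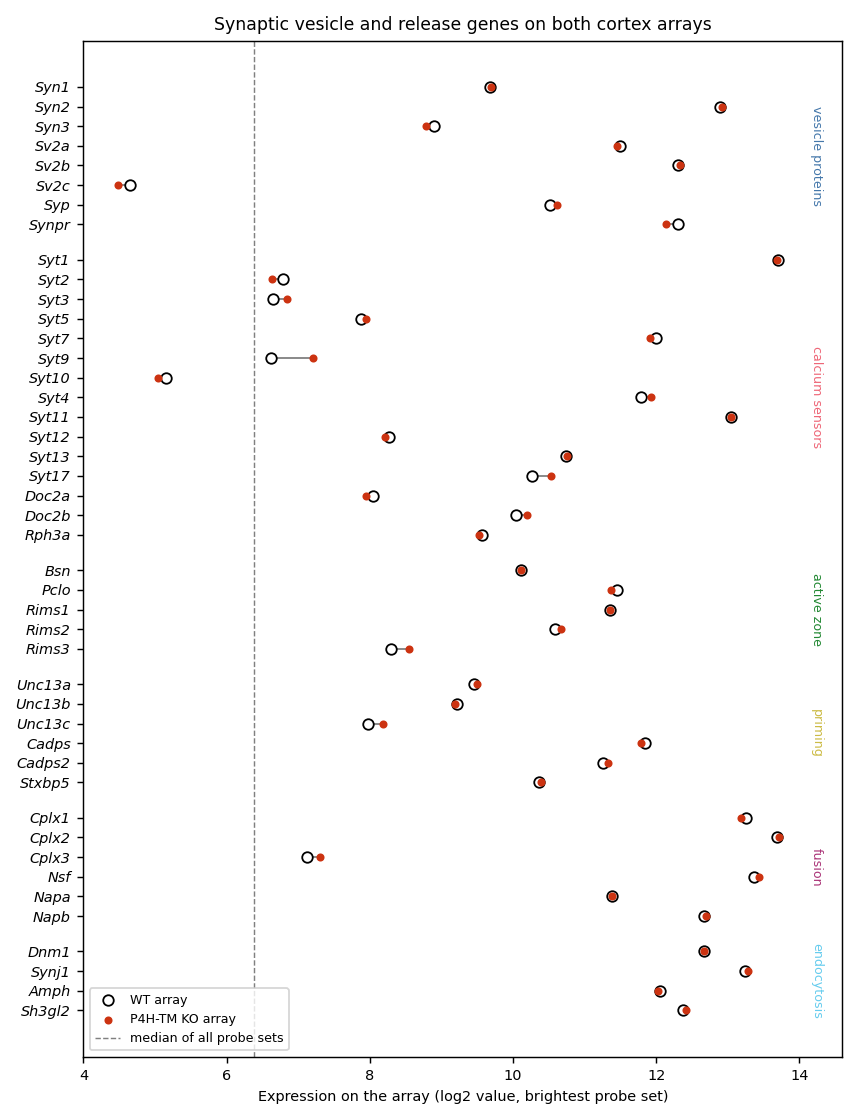
Log2 expression values (horizontal axis) of the 44 release genes on the WT array (open circles) and the P4H-TM KO array (red points), by class, with a grey line joining the values of a gene and a dashed line at the median of all probe sets, 6.385. Most pairs overlap, and the widest gap is that of Syt9, from 6.62 to 7.20. Error bars are missing because each genotype was measured once.

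Among the vesicle proteins, 4 of 8 genes were higher and 4 were lower, and the differences had a median of −0.015 and a range from −0.17 to 0.10. Of the synapsins, only Syn3 differed by more than 0.1 on its brightest probe set. Syn1 had 9.68 in WT against 9.69 in P4H-TM KO, and Syn2 had 12.89 and 12.92. Syn3, the remaining member of the family, had 8.90 and 8.78, a difference of −0.12, and its other 2 probe sets were lower as well, with −0.09 and −0.20. Hence Syn1 and Syn2 had almost equal values on their brightest probe sets, and Syn3 was the synapsin with the consistently lower value.

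Sv2a, which encodes the most widely expressed SV2 glycoprotein, had 11.49 in WT against 11.45 in P4H-TM KO. Sv2b, which is abundant in the forebrain, had 12.31 and 12.33. For Sv2c, an isoform with restricted expression in the brain, the values were 4.65 and 4.48, which are below the median signal of the array. The synaptophysin gene Syp, whose product is among the most abundant proteins of the vesicle membrane, had 10.51 and 10.61, and 5.79 and 5.78 on a dimmer probe set. Its relative Synpr, synaptoporin, had 12.30 and 12.14. Sv2c and Synpr were thus the lowest vesicle protein genes relative to WT, with −0.17 and −0.16, each on a single probe set.

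Calcium sensors had the widest range of differences, with an upper end set by Syt9 on 1 probe set. Of 15 genes, 8 were higher and 7 lower in P4H-TM KO, with a median of 0.01 and a range from −0.16 to 0.58. Both genes past 1.2-fold were listed in this class, though Syt17 is a synaptotagmin usually classed as not binding calcium. Synaptotagmins carry a pair of C2 domains, which in some isoforms bind calcium and in others do not. The 7 synaptotagmin genes usually classed as calcium-binding had a median of −0.02, and the 5 other synaptotagmin genes one of 0.01.

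Syt1, Syt2 and Syt9 encode the sensors of fast, synchronous release. Syt1, the main sensor of forebrain neurons, had 13.70 in WT against 13.68 in P4H-TM KO, and −0.02, 0.17 and 0.24 on its 3 dimmer probe sets. Syt2 had 6.79 and 6.63, and its differences were negative on all 3 probe sets, from −0.26 to −0.10. Syt9 had 6.62 in WT against 7.20 in P4H-TM KO. This difference of 0.58, or 1.49-fold, was the largest among the 44 genes and fell just short of 1.5-fold. It was measured on 1 probe set at a signal close to the median of the array, so no second probe set bears on it. The fast sensors therefore did not share a direction, with values near equality for Syt1 on its brightest probe set, lower for Syt2 and higher for Syt9.

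Syt7, a slower sensor with high calcium affinity that acts in asynchronous release and facilitation, had 11.99 in WT against 11.91 in P4H-TM KO, with differences of −0.14 to 0.04 over 4 probe sets. Syt3 had 6.65 and 6.84, a difference of 0.19 on 1 probe set, and Syt5, found on dense-core vesicles, had 7.88 and 7.94. Syt10, known from the regulated secretion of a growth factor, had 5.15 and 5.04, below the median signal. None of these 4 genes reached 1.2-fold.

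Of the synaptotagmins usually classed as not binding calcium, Syt17 was the one past 1.2-fold, with 10.26 in WT and 10.53 in P4H-TM KO. Its difference was 0.27, just above the threshold, and its second probe set went the same way, with 9.32 and 9.53. With both probe sets averaged, the Syt17 difference was 0.24, below the threshold. Syt4, which is found on dense-core vesicles and is induced by neuronal activity, had 11.79 and 11.92, and its second probe set differed by 0.12. Syt11 had 13.04 and 13.05 on the brightest of 5 probe sets, whose differences lay between −0.05 and 0.04. Syt12 had 8.27 and 8.21, and Syt13 had 10.74 and 10.75. Syt17 and Syt4 were thus higher on every probe set, whereas Syt11 and Syt13 had probe sets on both sides of equality.

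The remaining sensors are proteins with C2 domains other than synaptotagmins. Doc2a, which has been linked to asynchronous release, had 8.04 in WT against 7.95 in P4H-TM KO. Doc2b, linked to spontaneous release, had 10.04 and 10.19, a difference of 0.15, with −0.03 on a dimmer probe set. Rph3a, which encodes the Rab effector rabphilin, had 9.56 and 9.53. The values of these 3 genes did not share a direction.

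**Figure D2:**
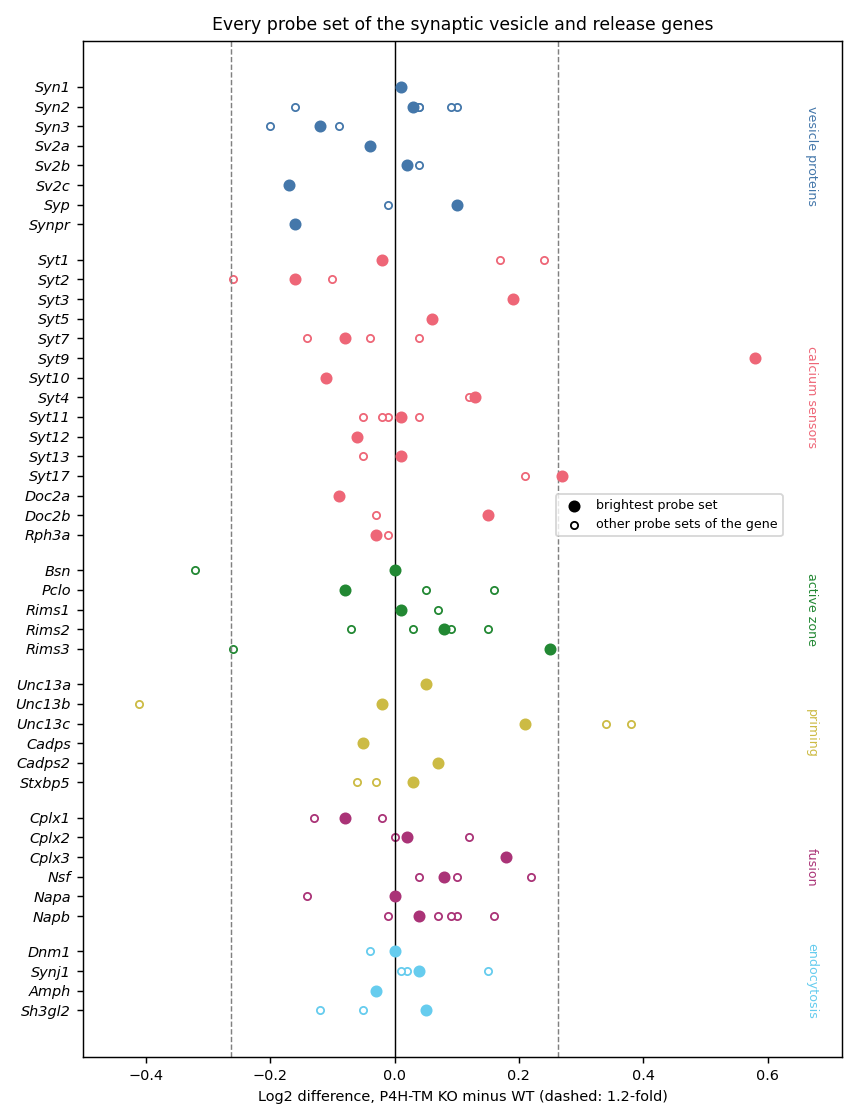
Log2 difference between P4H-TM KO and WT (horizontal axis) for each of the 104 probe sets of the 44 release genes, with filled points for the brightest probe set of a gene and open points for its others; the dashed lines mark 1.2-fold. Syt9 and Syt17 are the filled points beyond the right dashed line, and the open points of Rims3 and Unc13b and 1 of the 2 open points of Bsn lie far to the left of the filled ones.

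At the active zone, 3 of 5 genes were higher, 1 was lower and 1 was equal, with a median of 0.01. Bsn, which encodes the scaffold protein bassoon, had 10.11 on both arrays. A dimmer probe set of Bsn had 7.38 in WT against 7.06 in P4H-TM KO, and its dimmest had 4.57 on both. Pclo, the gene of the related scaffold piccolo, had 11.45 and 11.37, with 0.05 and 0.16 on its other probe sets. Rims1 had 11.35 and 11.36, and Rims2 had 10.59 and 10.67. Their products tie vesicles to calcium channels and to Munc13. Rims3, which encodes a short RIM protein, had 8.30 and 8.55, a difference of 0.25 just below 1.2-fold, but its other probe set had 4.32 and 4.06, a difference of −0.26 below the median signal. The large scaffold and RIM genes were hence close to equality, and the Rims3 difference rests on 1 of its 2 probe sets.

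In the priming class, 4 of 6 genes were higher and 2 lower, with a median of 0.04. The main Munc13 gene of the forebrain, Unc13a, had 9.45 in WT against 9.50 in P4H-TM KO. Unc13b had 9.21 and 9.19, and −0.41 on a dim probe set with 3.82 and 3.41. Unc13c, the Munc13 gene best known from the cerebellum, had 7.97 and 8.18, and its difference was positive on all 3 probe sets, with 0.21, 0.38 and 0.34 in order of signal. Unc13c was the priming gene with the highest value relative to WT, and its brightest probe set gave the smallest of these differences. With the 3 probe sets averaged it came to 0.31, past 1.2-fold. Cadps, whose product primes dense-core vesicles, had 11.84 and 11.79, and its paralog Cadps2 had 11.25 and 11.32. Stxbp5, which encodes the inhibitor of SNARE assembly tomosyn, had 10.36 and 10.39. These 3 genes differed by 0.07 or less on their brightest probe sets.

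The fusion class joins the complexins and the proteins that recycle SNARE complexes, and 4 of its 6 genes were higher, 1 was lower and 1 equal, with a median of 0.03. Cplx1 had 13.26 in WT against 13.18 in P4H-TM KO and was lower on all 3 probe sets, with −0.02 to −0.13. Cplx2 had 13.69 and 13.71. Cplx3, a complexin with restricted expression, had 7.12 and 7.30, a difference of 0.18 on 1 probe set. Among the complexins, only Cplx3 was past 1.1-fold on its brightest probe set. The ATPase gene Nsf had 13.36 and 13.44 and was higher on all 4 probe sets, by 0.04 to 0.22. The SNAP adaptor gene Napa had 11.38 on both arrays, with −0.14 on a dimmer probe set. Napb, the adaptor gene enriched in brain, had 12.66 and 12.70, and its differences lay between −0.01 and 0.16 over 6 probe sets.

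The endocytosis genes lay closest to equality. Dnm1, which encodes the neuronal dynamin that cuts vesicles from the membrane, had 12.66 on both arrays. Synj1, the gene of a lipid phosphatase that sheds the clathrin coat, had 13.24 in WT against 13.28 in P4H-TM KO, and was higher on all 4 probe sets, by 0.01 to 0.15. Amph, whose product recruits dynamin, had 12.05 and 12.02. Sh3gl2, the gene of an endophilin, had 12.37 and 12.42, with −0.05 and −0.12 on dimmer probe sets. All 4 differences were within 0.05 of 0, and the class median was 0.02.

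Side by side, the class medians ranged from −0.015 for vesicle proteins to 0.04 for priming, with 0.01 for calcium sensors and for the active zone, 0.03 for fusion and 0.02 for endocytosis. All lay within 0.05 of the median of all genes. The median size of a difference, regardless of direction, was 0.09 for calcium sensors, 0.08 for the active zone, 0.07 for vesicle proteins, 0.06 for fusion, 0.05 for priming and 0.035 for endocytosis. The classes were not matched for signal. Endocytosis genes had means of 12.035 or more, whereas calcium sensors reached down to 5.095 (Syt10). The part of signal in the order of the classes was not tested. No test between classes can be made on 2 arrays.

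The size of a difference went with the signal. Of the 44 genes, 42 reached a mean of 6.385, the median over all probe sets. The 28 genes with a mean of at least 10 had a median size of 0.04, and the 16 dimmer ones one of 0.115. Over all genes these sizes were 0.05 for 3526 genes with a mean of at least 10 and 0.09 for the others. Across the 44 genes, which share the same 2 arrays and are not independent replicates, Spearman's rho between mean signal and size of the difference was −0.50, and it was −0.35 across all genes. Larger differences therefore tended to be seen in genes with a dim signal on the array, with exceptions such as Syt17 at a mean of 10.395. Among genes that reached the median signal, 1.2-fold higher values were found in 2.9% and 1.2-fold lower values in 1.83%. Syt9 and Syt17 made 2 of the 42 release genes that reached it.

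**Figure D3:**
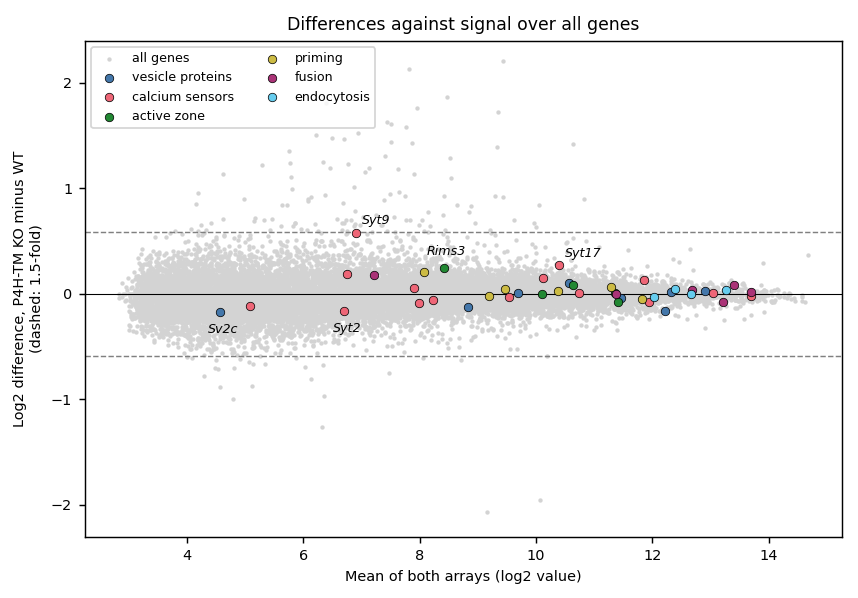
Log2 difference between P4H-TM KO and WT (vertical axis) against the mean log2 value of both arrays (horizontal axis) for all 18193 genes (grey) and the 44 release genes (coloured by class), with dashed lines at 1.5-fold. The release genes with a mean of at least 10 lie between −0.16 and 0.27, and Syt9 lies just under the upper dashed line.

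At a lower threshold of 1.1-fold, 7 release genes were higher in P4H-TM KO, which is 15.9% against 13.5% of all genes, and 3 were lower, which is 6.82% against 16.4%. Among all genes that reached the median signal, which most release genes did, 11.3% were higher and 9.42% lower at this threshold. The higher genes were Syt9, Syt17, Rims3, Unc13c, Syt3, Cplx3 and Doc2b, and the lower ones Sv2c, Synpr and Syt2. Of these 10 genes, 7 had a mean signal under 10. Support from a second probe set was uneven, since 5 had 1 probe set, 3 had several that all went one way (Syt17, Unc13c and Syt2), and 2 had probe sets on both sides of equality (Rims3 and Doc2b).

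The probe sets of a gene gave a measure of the precision of this pair of arrays. The 44 genes had 104 probe sets, with up to 6 per gene, and 29 genes had several. In 12 of the 29 genes, or 41.4%, all probe sets differed in the same direction, compared with 36.6% of 9010 such genes overall. Of these, 7 were higher throughout (Sv2b, Syt4, Syt17, Rims1, Unc13c, Nsf and Synj1) and 5 lower (Syn3, Syt2, Rph3a, Unc13b and Cplx1). The difference had a pooled SD between probe sets of one gene of 0.10 for the release genes and 0.15 for all genes, which describes these arrays and not the spread between animals. For 15 release genes, Syt9 among them, no such check exists.

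Other genes of vesicle release and recycling gave a similar picture. Of 52 listed genes, which exclude the 44 above as well as SNARE and Rab genes, 47 were measured, of which 25 were higher, 21 lower and 1 equal in P4H-TM KO, at a median of 0.01. At 1.2-fold, 1 gene (Rims4) was higher and 1 (Syt6) lower, and none reached 1.5-fold. Rims4, which like Rims3 encodes a short RIM protein, had the highest difference, with 8.11 in WT and 8.45 in P4H-TM KO, and its second probe set had 6.20 and 6.50. After it came Cplx4, with 4.03 and 4.23 at a signal below the median, and Rph3al, with 6.86 and 7.01. The lowest differences belonged to synaptotagmin genes and a tomosyn gene. Syt6 had 5.80 and 5.24 below the median signal, with differences of −0.14 to 0.55 on its dimmer probe sets. Syt14 had 7.98 and 7.76, and Stxbp5l had 11.02 and 10.83. The Rims4 difference was thus repeated on a second probe set, and that of Syt6 was not.

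Markers of cell types and regions were read on the same arrays. Neuron markers stand for the relative level of neuronal RNA in each pool and not for its amount, because the arrays were equalized. All 16 genes had a mean at or above the median signal, and their median difference was 0.01. Their summed linear signal in P4H-TM KO was 1.02 times that in WT. Excitatory neuron markers had a median of −0.03 over 8 genes, and interneuron markers one of −0.05 over 13. The medians were −0.06 for 14 astrocyte markers, −0.025 for 10 microglia markers, 0.07 for 9 endothelial markers, −0.08 for 10 striatum markers, −0.04 for 10 hippocampus markers, 0.17 for 5 layer 6b markers and 0.02 for 10 cerebellum markers. Larger shifts appeared in 12 oligodendrocyte markers, all lower with a median of −0.28, 13 choroid plexus markers, all higher with a median of 1.58, and 14 meninges markers, 13 of them higher with a median of 0.32. The summed signal of these lists in P4H-TM KO was 0.883, 1.46 and 1.57 times that in WT. Most of the choroid plexus sum comes from Ttr, with 14.49 in WT and 14.86 in P4H-TM KO. Its difference of 0.37 was the lowest of that list, so the ratio of 1.46 mainly reflects this gene. The part of these tissues in the Syt9 and Syt17 differences was not tested.

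**Figure D4:**
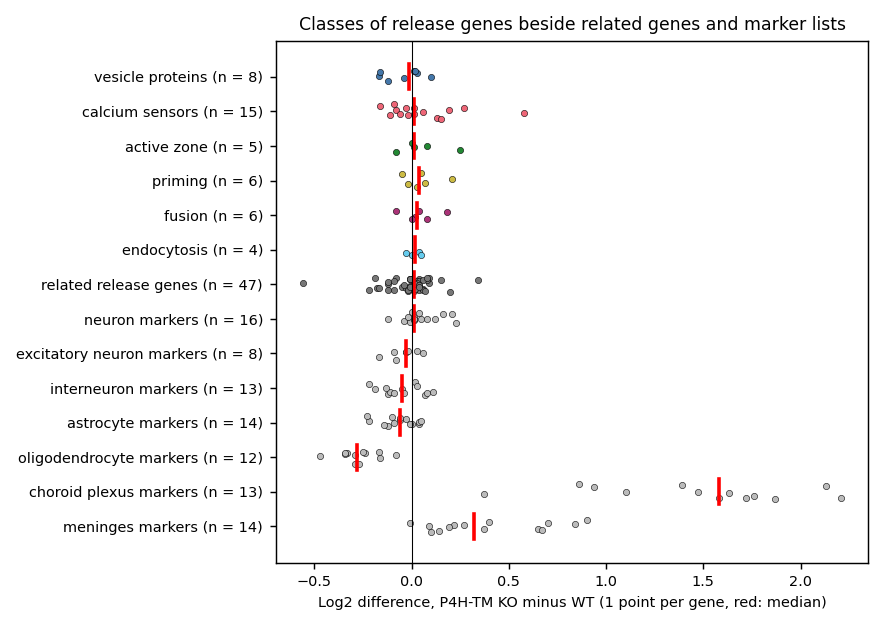
Log2 difference between P4H-TM KO and WT (horizontal axis), with 1 point per gene and a red bar at the median of each list, for the classes of release genes, the related release genes and marker lists; n is the number of measured genes. The medians of the release classes lie between −0.015 and 0.04, those of oligodendrocyte and choroid plexus markers at −0.28 and 1.58.

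Some release genes are themselves tied to cell types. Syt2 is found in cortex mainly in the terminals of parvalbumin interneurons, and the values of Pvalb were 9.78 in WT and 9.59 in P4H-TM KO, a difference of −0.19 beside −0.16 for Syt2. Other markers of the interneuron list did not all go this way. The potassium channel gene Kcnc2 had 11.08 and 11.11. Kcnc1 had 11.11 and 10.98, with differences of −0.13 to 0.08 over 4 probe sets. The vesicular GABA transporter gene Slc32a1 had 10.15 and 10.03, and Gad1, for GABA synthesis, had 12.57 and 12.59. Over all 13 interneuron markers, 5 were higher and 8 lower, and their summed linear signal was 20987 in WT against 20853 in P4H-TM KO. In tissue RNA, fewer cells of a type and less RNA per cell cannot be told apart, and the part of interneurons in the Syt2 difference was not tested. Cplx3 is expressed in layer 6b of the cortex. By brightest probe sets, 4 of 5 measured layer 6b markers were higher and 1 lower, with differences from −0.37 (Nxph4) to 0.45 (Moxd1). Their summed signal was 3886 against 4415, and Nr4a2, with 11.04 and 11.30, was the brightest of them. Only 3 of the 5 reached the median signal. With probe sets averaged, Foxp2 (−0.165) and Tle4 (−0.0133) were lower too, while Nr4a2 (0.235) and Moxd1 stayed higher. The part of this layer in the Cplx3 difference was not tested. For Unc13c, the cerebellar granule cell marker Gabra6 was near the low end of the arrays, with 3.84 in WT and 3.76 in P4H-TM KO. Of the 10 cerebellum markers 5 were higher and 5 lower, with differences from −0.41 (Zic1) to 0.23 (Cbln1). Their summed signal was 5256 against 4847, and Zic1, a bright gene of this list, had 10.89 and 10.48. The part of the cerebellum in the Unc13c difference was not tested.

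Of the release genes, 3 lie on chromosome 9, the chromosome of P4htm. Bsn is the nearest, as the 20th measured gene from P4htm in the order of RefSeq assembly GRCm38.p6, and its brightest probe set had equal values on both arrays, while the second, as given above, had a difference of −0.32. Among the 19 measured genes between them, the median difference was −0.01, and 1 gene, a probe set annotated to Mir425 at a mean below the median signal, was 1.2-fold lower, with 6.41 and 5.93. Unc13c and Cplx3 lie further away, as the 264th and 415th measured genes, and were higher by 0.21 and 0.18. By their brightest probe sets, none of the 3 genes was lower in P4H-TM KO.

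Promoter windows of RefSeq, from 250 bases before to 50 after a gene start, were given for 34 of the 44 genes. The GC box GGGCGG, the letters bound by Sp1, was present on either strand in the windows of 25 of the 34 genes, or 73.5%, compared with 38.2% of 27025 genes overall. Here and for the element below, the comparison is with every gene that has a window. Those genes include ones not measured on these arrays and were not matched in expression. The cAMP response element TGACGTCA, the palindrome bound by CREB when neuronal activity raises transcription, was present in 3 of the 34 genes, or 8.82%, compared with 2.03% of all genes. These sites are shown, 5′ to 3′ on the strand of the gene with the element in capitals, because the element is rare among promoters and the 3 genes span vesicle tethering, fusion and endocytosis. The stretch shown for Sh3gl2 is chr4:85205408-85205437 (plus strand), that for Napa chr7:16098562-16098591 (plus strand) and that for Syn1 chrX:20921059-20921088 (minus strand), all in GRCm38.p6. Each is a part of 30 bases of the promoter window.
Sh3gl2: atcacccgcccTGACGTCAgggtgtctctc
Napa: gcaggcctgggTGACGTCAacgcagcgggc
Syn1: caaaggctgacTGACGTCActcactagccc
The element begins 37 bases before the start of Sh3gl2, 7 before that of Napa and 159 before that of Syn1. The 3 genes that carry it had differences of 0.05, 0.00 and 0.01 on the brightest probe sets, so none was among the genes past 1.1-fold. A match to these letters describes the sequence and not a bound site.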

How the data were processed

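Total RNA was labeled with biotin and hybridized to Affymetrix mouse expression arrays. The authors read out signal intensities in the GeneChip Operating System, normalization was done in GenePattern, and the submitters' processing notes name RMA, a method that corrects background, equalizes the arrays and summarizes probe sets. The deposited values are log2 values with 2 decimals, and the arrays have medians of 6.38 (WT) and 6.39 (P4H-TM KO). Detection calls were not used here, so a dim value may be background. Of 45101 probe sets, 34945 that are not controls carry 1 symbol in GEO's platform annotation, while 932 list more than 1 and 9160 have no name here. All 44 symbols matched RefSeq.

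Differences are P4H-TM KO minus WT. With 1 array per genotype no test was run. Lists are described by counts and medians beside all genes, without a filter on signal. Alternatives were the mean over probe sets, removal of probe sets that can match other transcripts (suffixes _s_at and _x_at), centred arrays, removal of the intensity trend (loess, span 0.3), a filter at the median signal and other thresholds. Stability was judged against the SD between probe sets of a gene, 0.147 over 9010 genes (divided by the square root of the number of genes for medians), and for counts against a factor of 1.5. Selection, counts and SD were tested on simulated data. The 44 genes, their classes, the related genes and the markers were chosen with earlier results of these data known. The text names all 44 genes, P4htm, the 3 highest and 3 lowest related genes and markers that bear on a named gene. Mir425 and Ttr were named after their values were seen. Calculations ran in Python 3.11.15 with pandas 2.3.3 and numpy 2.4.6, the loess in statsmodels 0.14.6 and plots in matplotlib 3.10.9. Protein sequences were not used here.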

Additional observations from a re-analysis of the deposited data

How the results depend on the processing

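The precision is limited by the number of arrays, 1 pool per genotype, and by single probe sets. No paired analysis was possible because each genotype has 1 array. Over the alternatives, 173 values of single release genes stayed within the SD between probe sets and 2 did not. These were Rims3 with −0.005 and Unc13b with −0.215, both with probe sets averaged. The count of 173 is no evidence of stability, because many of the values could hardly move. Centring shifts all genes alike, and averaging cannot change the 15 genes with 1 probe set. Removal of probe sets that can match other transcripts changed only Syn3 and Syt11 among the genes that kept a probe set. The SD of 0.147 is also larger than the median size of a release gene difference, 0.06. The 2 genes at least 1.2-fold higher numbered 1 with centred arrays, where Syt17 fell below the threshold, and 7 at 1.1-fold, where 3 were lower. With probe sets averaged the count was again 2, but Unc13c (0.31) took the place of Syt17 (0.24). With the intensity trend removed 1 gene, Syt9, was 1.5-fold higher. The 1 related gene 1.2-fold lower numbered 0 with probe sets averaged and 0 above the median signal. Of the list medians under the alternatives, 47 stayed within the limit and 1 did not, as the calcium sensor median of 0.01 became a mean of 0.0567. That count is no evidence of stability either, because the limit is wide beside medians this small. With probe sets averaged, for example, the endocytosis median went from 0.02 to −0.025 and still counted as within it. For P4htm, −1.95 became −1.80 as the mean of its probe sets and −1.64 without the probe set that can match other transcripts. The cause of these shifts was not tested, other than fewer genes or probe sets where the alternative removes them.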
